A study of Mus musculus with 24 samples.

Results

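Lifelong high against lifelong low vitamin D3 is the widest contrast in total exposure that the design holds. It set 6 HH mice against 6 LL mice, 12 of the 24 arrays, chosen by the diet given in the sample title. All mice were male 129/SvEvIL-10 KO mice at 3 months of age, which lack interleukin-10 and carry no wild-type comparison here. HH mice came from mothers fed 5000 IU vitamin D3/kg diet through pregnancy and lactation and ate the same diet after weaning. LL mice had 25 IU/kg in both periods. The other 12 mice changed diet at weaning, from 5000 to 25 IU/kg (HL, n = 6) or from 25 to 5000 IU/kg (LH, n = 6), and were used for the spread and as a second set of values. RNA of the proximal colon of each mouse was hybridized to 1 Illumina MouseWG-6 v2 BeadChip.

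Vitamin D3 is converted in the liver and then the kidney to its active hormone, which binds the vitamin D receptor (Vdr), a nuclear receptor that sits on DNA together with a retinoid X receptor (Rxr). In the gut the receptor switches on the calcium channel Trpv6, the calcium carrier S100g and Cyp24a1, the enzyme that breaks the hormone down. IL-10 restrains the response of gut immune cells to bacteria, and mice without it develop colitis. The comparison asks which genes of the colon differ between mice raised from pregnancy on with much and with little vitamin D3.

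No HH mouse shared a mother's label with an LL mouse (0 labels shared), whereas 2 labels were shared by HH and HL and 2 by LL and LH. Mice are called here by group and mother's label. Some labels differ only by a letter, as in HH 5 and HH 5A, HH 10 and HH 10B, and LL 13 and LL 13A. Whether the letter marks another dam, another litter or a cage is not given, and the main fit treats each mouse as separate. Detection was uneven between arrays. The share of probes detected, meaning a detection score above 0.99, was 29.5% to 37.0% in HH and 21.9% to 36.3% in LL, with LL 3B at 21.9% and LL 13 at 28.6%. These 2 LL arrays were each other's nearest array among the 12, and values without them were added after seeing the data. The 8 colon epithelium markers with a probe, among them the transcription factor Cdx2, the mucin Muc2 and the chloride exchanger Slc26a3, were detected on all 12 arrays, at differences between groups of -0.07 to 0.20. Of the small intestine markers 2 of 8 were detected on 10 or more of the 12 arrays, and of the distal colon Hox genes 2 of 6. The probe of Il10 was detected on 6 HH and 5 LL arrays. Its log2 values were 7.54 to 7.91 in HH and 7.50 to 7.86 in LL, and its place in the disrupted gene is not known.

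Values are log2 intensities after quantile normalization, on which a difference of 1 is a 2-fold change and undetected values lie near 7.09. With limma, 0 of 34375 expressed probes (0%) passed an adjusted p of 0.05, and the smallest adjusted p was 0.974. An unadjusted p under 0.05 was reached by 559 probes with the higher mean in HH (1.63%) and by 566 with the lower (1.65%). The 6 HH values lay wholly above the 6 LL values for 30 probes (0.0873%) and wholly below for 34 (0.0989%). Over the 15937 genes with an expressed probe the median difference was -0.00318, with the 5th percentile at -0.21 and the 95th at 0.19. Of these genes 48.8% had the higher mean in HH. None of the differences that follow passed the adjusted test, and they are given with their 95% intervals as the sizes these arrays measured. A detected gene had a median half-width of 0.281 on the log2 scale, for an interval not adjusted for the number of probes. Differences below that size mostly could not be told from 0 with 6 mice a group. The adjusted test needs larger differences still, so differences above that size are not shown to be absent.

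A greater distance between HH and LL arrays than within each group was not detectable. The mean distance between arrays (1 minus the correlation of probe-centred values) was 1.04 between HH and LL mice, 1.05 within HH and 1.04 within LL. Between-group minus within-group distance was 0.0015 (exact permutation test over all divisions of the 12 mice into 6 and 6, one-sided p = 0.39). The nearest array of 4 of the 6 HH mice was that of an LL mouse.

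Slc51b and Slc51a encode the 2 subunits of the transporter that moves bile acids out of the enterocyte into the blood, and both had lower means in HH. Their promoters are shown because they belong to 1 transporter and hold the core element of nuclear receptors. The bases below run from 250 before to 50 after the RefSeq start of each gene (GRCm38.p6, minus strand), with the half-site AGGTCA, read on either strand, in capitals. This hexamer is the core element of many nuclear receptor sites, which usually pair it with another half-site, and 16.3% of 32851 promoters of this length hold at least 1. The promoter of Fabp6, the bile acid carrier of the enterocyte, held 0.
Slc51b, chr9:65422724-65423023: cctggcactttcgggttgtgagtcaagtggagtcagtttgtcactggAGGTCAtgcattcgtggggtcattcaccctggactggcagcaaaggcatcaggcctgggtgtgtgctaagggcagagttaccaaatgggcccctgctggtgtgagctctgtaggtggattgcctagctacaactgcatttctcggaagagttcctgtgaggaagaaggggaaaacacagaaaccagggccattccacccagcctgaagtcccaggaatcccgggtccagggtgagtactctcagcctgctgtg
Slc51a, chr16:32487830-32488129: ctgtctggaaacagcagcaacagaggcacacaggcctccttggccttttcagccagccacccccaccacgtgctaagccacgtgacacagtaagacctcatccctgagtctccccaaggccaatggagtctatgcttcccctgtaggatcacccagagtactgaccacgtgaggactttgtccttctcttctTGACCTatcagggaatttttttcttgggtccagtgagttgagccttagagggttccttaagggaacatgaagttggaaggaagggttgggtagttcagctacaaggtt
Each promoter held 1 copy of the hexamer, which follows from the choice of promoters shown. A match of letters is not a measured site, and a role of any nuclear receptor in these differences was not tested.

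Slc51b had log2 values of 9.95 (lowest), 10.15 (median) and 10.58 (highest) in HH and of 10.27, 10.77 and 11.03 in LL. Both groups overlapped through HH 10 and HH 10B on one side and LL 12 and LL 2C on the other, and all 6 HH mice lay below the LL mean. The difference was -0.50 (95% interval -0.84 to -0.16, limma unadjusted p = 0.00527, adjusted p = 0.974), and -0.47 without LL 3B and LL 13. Slc51a was at 8.23, 8.37 and 8.79 in HH and 8.42, 9.07 and 9.81 in LL, a difference of -0.63 (95% interval -1.34 to 0.09). Its 3 highest LL mice were LL 6, LL 13 and LL 3B, at 9.81, 9.61 and 9.59, and the difference was -0.36 without LL 3B and LL 13. Fabp6 differed by -0.25 (95% interval -0.50 to 0.00). Of the 11 expressed genes of the bile acid list, 9 were lower and 2 higher in HH, with a median of -0.09, and 0 passed the adjusted test. Scaling each array to its median in place of quantile normalization moved the median of all detected genes to 0.211, and the median of this list to 0.01. Directions of lists and genes are given here relative to all genes, under quantile normalization.

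Of the detected genes, the 12 higher and the 12 lower in HH with the smallest unadjusted p-values were taken for description. Picked on these same arrays, their differences are likely too large, and intervals that leave out 0 follow from the choice. HH and LL ranges did not touch for 3 of these 24. The first was Oas2, an interferon-induced sensor of double-stranded RNA, at 7.47, 7.56 and 7.74 in HH and 7.13, 7.33 and 7.46 in LL. Every HH mouse lay above every LL mouse, but HH 10 at 7.47 and LL 6 at 7.46 were next to each other, and the probe was detected on 3 of 6 LL arrays. The difference was 0.26 (95% interval 0.09 to 0.43). Acsf3, which activates malonate in mitochondria, was at 7.87, 8.09 and 8.16 in HH and 8.18, 8.40 and 8.53 in LL, a difference of -0.33 (95% interval -0.51 to -0.15). It had the smallest p-value of the 24 (limma unadjusted p = 0.000854, adjusted p = 0.974). Pdk4, a kinase that shuts the pyruvate dehydrogenase complex, was at 7.32, 7.36 and 7.48 in HH and 7.49, 7.56 and 7.79 in LL, near background in both. Its difference was -0.22 (95% interval -0.38 to -0.05).

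**Figure D1:**
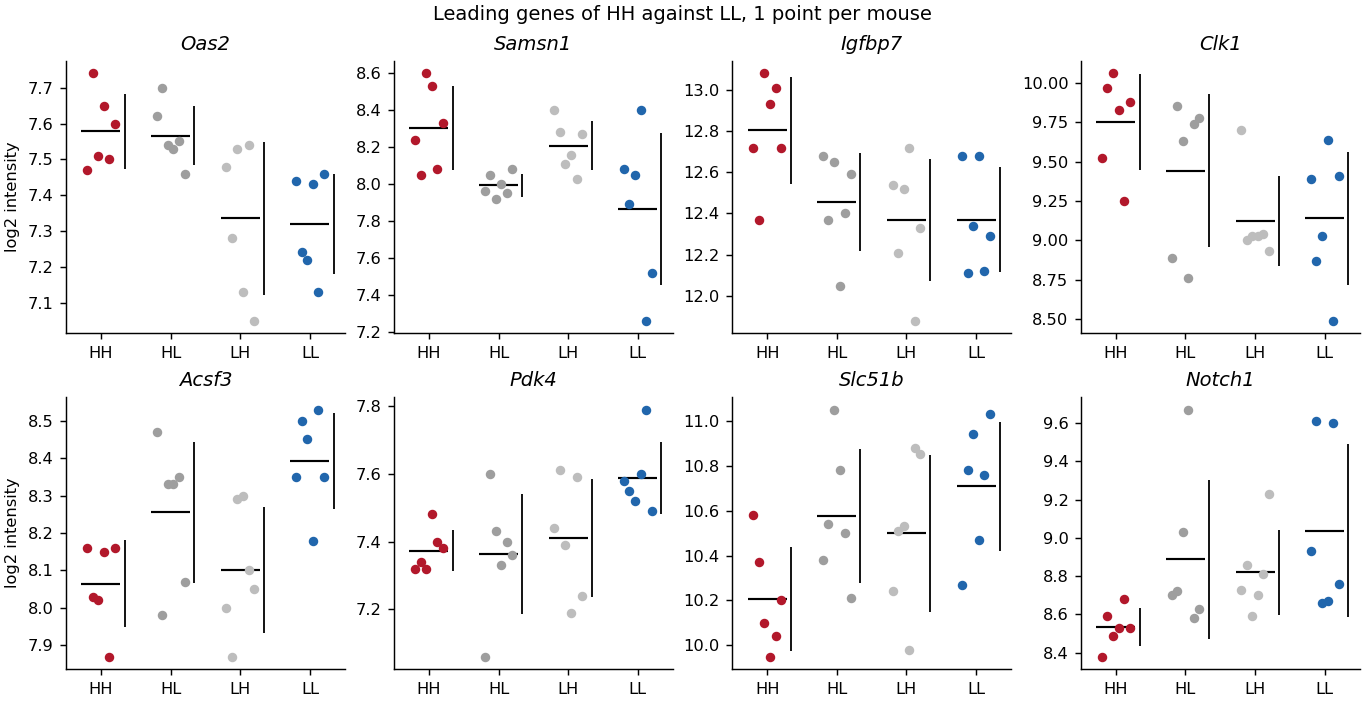
Log2 intensity (vertical axis, a separate range for each gene) of 8 of the 24 genes in each mouse of the 4 groups; horizontal lines are group means and vertical lines 1 SD either way (n = 6). HH and LL do not overlap for Oas2, Acsf3 and Pdk4 and overlap for the other 5, and the Notch1 mean of LL is raised by 2 mice at 9.60 and 9.61.

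Samsn1, a signalling adaptor of lymphocytes, was at 8.05, 8.29 and 8.60 in HH and 7.26, 7.97 and 8.40 in LL (difference 0.44, 95% interval 0.16 to 0.72). LL 2C at 8.40, LL 12 at 8.08 and LL 13A at 8.05 lay within the HH range, and LL 3B was the lowest mouse at 7.26. Ptprc, which encodes the pan-leukocyte phosphatase CD45, differed by 0.27, the interferon-induced Ifitm6 by 0.32 and Fscn1, an actin bundler of mature dendritic cells, by 0.31. Without LL 3B and LL 13 the differences were 0.29 for Samsn1, 0.13 for Ptprc, 0.26 for Ifitm6 and 0.24 for Fscn1. Ptprc and Ifitm6 were each detected on 3 of 6 LL arrays, so that their LL values lie partly at background. In bulk tissue such as this, fewer cells of a type and less RNA per cell cannot be told apart.

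Clk1, a kinase of splicing factors, was at 9.25, 9.85 and 10.06 in HH and 8.49, 9.21 and 9.64 in LL. Its difference of 0.61 (95% interval 0.18 to 1.05) was the largest of the 24, and it was 0.38 without LL 3B and LL 13, the lowest mice at 8.49 and 8.87. Igfbp7, a secreted protein that binds insulin-like growth factors, was at 12.37, 12.82 and 13.08 in HH and 12.11, 12.31 and 12.68 in LL (difference 0.43, 95% interval 0.13 to 0.73). Only HH 10B lay below the highest LL mice. The long-chain fatty acid receptor Ffar4 differed by 0.34, Plekha1, which binds membrane phosphoinositides, by 0.35, the SUMO ligase Pias2 by 0.18, and Fam107b and Ogfrl1 by 0.38 and 0.20. Pias2 was detected on 5 HH arrays and 1 LL array, and Fam107b and Ogfrl1 each on 6 HH and 4 LL arrays. These genes, like Oas2, Ptprc and Ifitm6, met the detection rule through HH alone. Pdk4, detected on 4 HH and 5 LL arrays, met it through LL alone. For Plekha1 a dimmer probe, detected on 10 of the 12 arrays, gave 0.23, and another, detected on 5, gave -0.20.

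Among the genes lower in HH, Cdo1, which starts the breakdown of cysteine, was at 8.82, 8.88 and 9.31 in HH and 9.15, 9.33 and 9.55 in LL (difference -0.41, 95% interval -0.65 to -0.16). A single mouse, HH 10B at 9.31, made the groups overlap, since the other 5 HH mice lay between 8.82 and 8.90. The threonine aldolase gene Tha1 differed by -0.38, Acacb, whose product makes malonyl-CoA at the mitochondrion, by -0.26, Rhot2, a mitochondrial transport GTPase, by -0.28 (0.03 under median scaling) and the mitochondrial tRNA enzyme gene Cdk5rap1 by -0.24. The last was -0.17 without LL 3B and LL 13, and a dimmer probe of it, detected on 11 of the 12 arrays, gave 0.12. A dimmer probe of Rhot2, detected on all 12, gave -0.09.

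Notch1, the receptor that steers crypt cells to the absorptive fate, was at 8.38, 8.53 and 8.68 in HH and 8.66, 8.84 and 9.61 in LL. The 2 highest LL mice were LL 13 and LL 3B, at 9.61 and 9.60, against 8.66 to 8.93 in the other 4. Its difference of -0.51 (95% interval -0.88 to -0.13) was -0.22 without that pair. The MAP kinase phosphatase gene Dusp8 differed by -0.20, the endocytic adaptor gene Epn2 by -0.25 (0.00 under median scaling) and the corepressor gene Tle6 by -0.29. Another probe of Dusp8, detected on 5 HH and 5 LL arrays, gave -0.01. Of 4 other probes of Epn2 detected on any HH or LL array, the brightest gave -0.09 and the next 0.11.

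LH minus HL, from 12 other mice, had the same sign as HH minus LL for 57.3% of the 8396 detected genes and for 16 of the 24 genes named above, 6 of 12 higher and 10 of 12 lower. Samsn1 (0.22) and Acsf3 (-0.15) had the sign of HH minus LL, and Oas2 (-0.23) and Clk1 (-0.32) the opposite sign. A shared sign is the order by post-weaning diet, and an opposite sign the order by mother's diet. LH minus HL is given without a test, and whether either diet period bears on any of these genes was not tested. For Slc51a LH minus HL was -0.86 and for Slc51b -0.08. The comparisons share no array, but share mothers' labels.

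Genes of vitamin D action were near or below background in many cases. Of 39 members of the receptor, metabolism and target lists with a probe, 16 were detected on at least 5 arrays of 1 group, 8 on fewer arrays and 15 on 0 of the 12 arrays. Among the last were Cyp24a1, Cyp27b1, which makes the active hormone, S100g and Rxra. Cyp24a1, the usual sign of receptor activity, had values of 6.91 to 7.18 in HH and 6.92 to 7.20 in LL, not above background in either, so its response to the diet was not measured here. Trpv6 was detected on 3 HH and 2 LL arrays, at 7.11 to 7.67 and 7.13 to 7.37. For all 16 detected genes the 95% interval of the difference held 0, with 10 higher and 6 lower in HH.

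Vdr was at 10.36, 10.81 and 11.11 in HH and 10.13, 10.82 and 11.24 in LL. The ranges were nested, and the difference was 0.01 (95% interval -0.43 to 0.45), -0.21 without LL 3B and LL 13. Its other 2 detected probes gave -0.02 and -0.07. The partner receptor gene Rxrb was at 8.97, 9.08 and 9.44 in HH and 9.00, 9.48 and 10.19 in LL. The difference was -0.37 (95% interval -0.83 to 0.09). The highest LL mice were LL 3B at 10.19 and LL 13 at 9.88, and the difference was -0.11 without them. A dimmer probe of Rxrb gave 0.07. Pdia3, a protein disulfide isomerase that has been proposed as a membrane receptor for the hormone, was at 12.44, 12.78 and 12.93 in HH and 11.45, 12.44 and 12.95 in LL. Here too LL 3B and LL 13 stood apart, at 11.45 and 11.52, and the difference of 0.47 (95% interval -0.16 to 1.09) was 0.07 without them.

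The other genes of hormone metabolism and of the receptor complex were Cyp27a1, a sterol hydroxylase (-0.05), Dhcr7, which draws on the vitamin D precursor (-0.02), and the Mediator subunit Med1 (0.12). Among the targets, the calcium pump gene Atp2b1 was at 7.66, 7.81 and 8.36 in HH and 7.29, 7.74 and 8.11 in LL (difference 0.20, 95% interval -0.14 to 0.53). The pore-forming claudin gene Cldn2 was at 10.23, 10.53 and 11.16 in HH and 10.01, 10.34 and 10.73 in LL (0.19, 95% interval -0.20 to 0.57). Both groups overlapped over most of their range for each of them. The difference without LL 3B and LL 13 was 0.04 for Atp2b1 and 0.06 for Cldn2, and it was 0.10 for Atp2b1 without HH 10B and 0.07 for Cldn2 without HH 11A. The carbonic anhydrase gene Car2 (0.20), the phosphate transporter gene Slc20a1 (0.10), the bacterial sensor gene Nod2 (0.08), Cyp3a13 (0.02) and Cldn12 (0.01) were on the same side. Slc8a1, a sodium and calcium exchanger (-0.07), Txnip (-0.03) and the cell cycle inhibitor gene Cdkn1a (-0.10) were on the other. Of 17 expressed genes of calcium and phosphate transport, 10 were higher and 7 lower, with a median of 0.00 and 0 past the adjusted test.

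**Figure D2:**
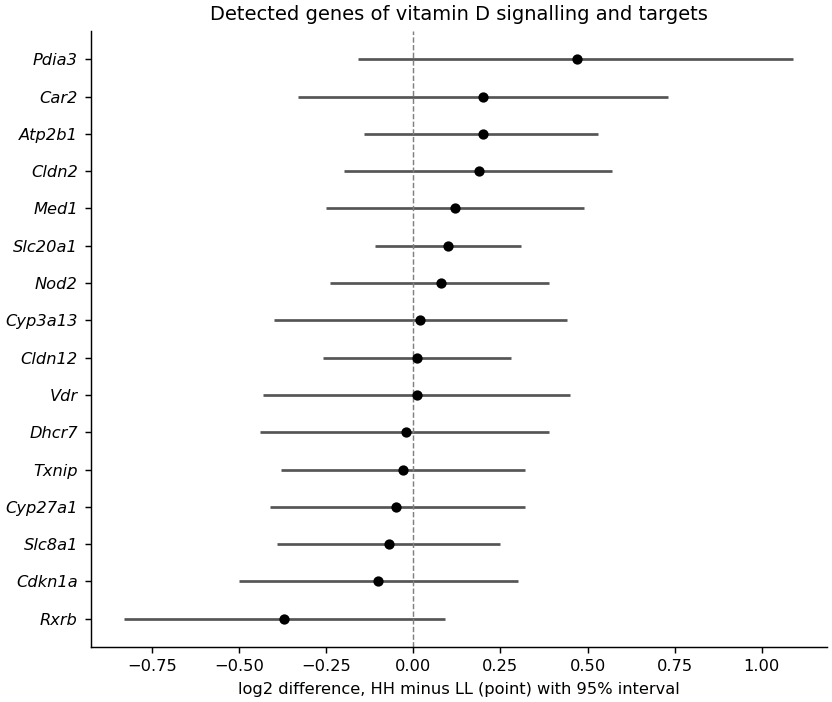
Log2 difference HH minus LL (horizontal axis) of the 16 detected genes of the vitamin D lists, one row each; points are estimates and lines 95% intervals from limma with 6 mice a group. Every line crosses 0, from Rxrb at -0.37 to Pdia3 at 0.47, and Vdr lies at 0.01.

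Genes of the extracellular matrix and stroma had the highest median of the lists with at least 5 expressed members, 0.28 against -0.00318 over all genes. Of 18 expressed members 16 were higher in HH, 2 at an unadjusted p under 0.05 and 0 past the adjusted test. At the gene level 1.33% of all genes were higher and 1.67% lower at that unadjusted threshold. Sparc, a collagen-binding glycoprotein, was at 10.36, 10.42 and 10.80 in HH and 9.82, 10.26 and 10.34 in LL. The ranges did not touch for this probe, and the difference was 0.30 (95% interval 0.03 to 0.56). A dimmer probe of Sparc, detected on 6 HH and 6 LL arrays, gave 0.18. Another, detected on 0 HH arrays and 1 LL array, gave -0.12. The collagen-binding proteoglycan gene Lum was at 8.47, 8.54 and 9.20 in HH and 7.61, 8.42 and 8.68 in LL (0.40, 95% interval 0.04 to 0.76), and fibronectin, Fn1, at 8.04, 8.21 and 8.65 and at 7.15, 8.04 and 8.22 (0.39, 95% interval -0.07 to 0.85). Both groups overlapped for Lum and Fn1, whose differences were 0.18 and 0.15 without LL 3B and LL 13. The 2 members lower in HH, picked out after their values were seen, were Mmp14 (-0.09) and Pdgfra (-0.02).

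The mean of the matrix list, centred on the 24 arrays, was 0.02, 0.12 and 0.37 (lowest, median, highest) in HH and -0.46, -0.02 and 0.08 in LL. The highest HH mouse was HH 10B, and the lowest LL mouse LL 13. The list median was 0.17 without LL 13 and 0.10 without LL 3B and LL 13, with 16 of 18 members still higher in the latter case. In LH minus HL it was -0.03, with 8 of 18 members higher. With the share of probes detected as a covariate the list median was 0.18, with 15 of 18 members higher, and with array weights it was 0.18, with 17 of 18 higher.

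**Figure D3:**
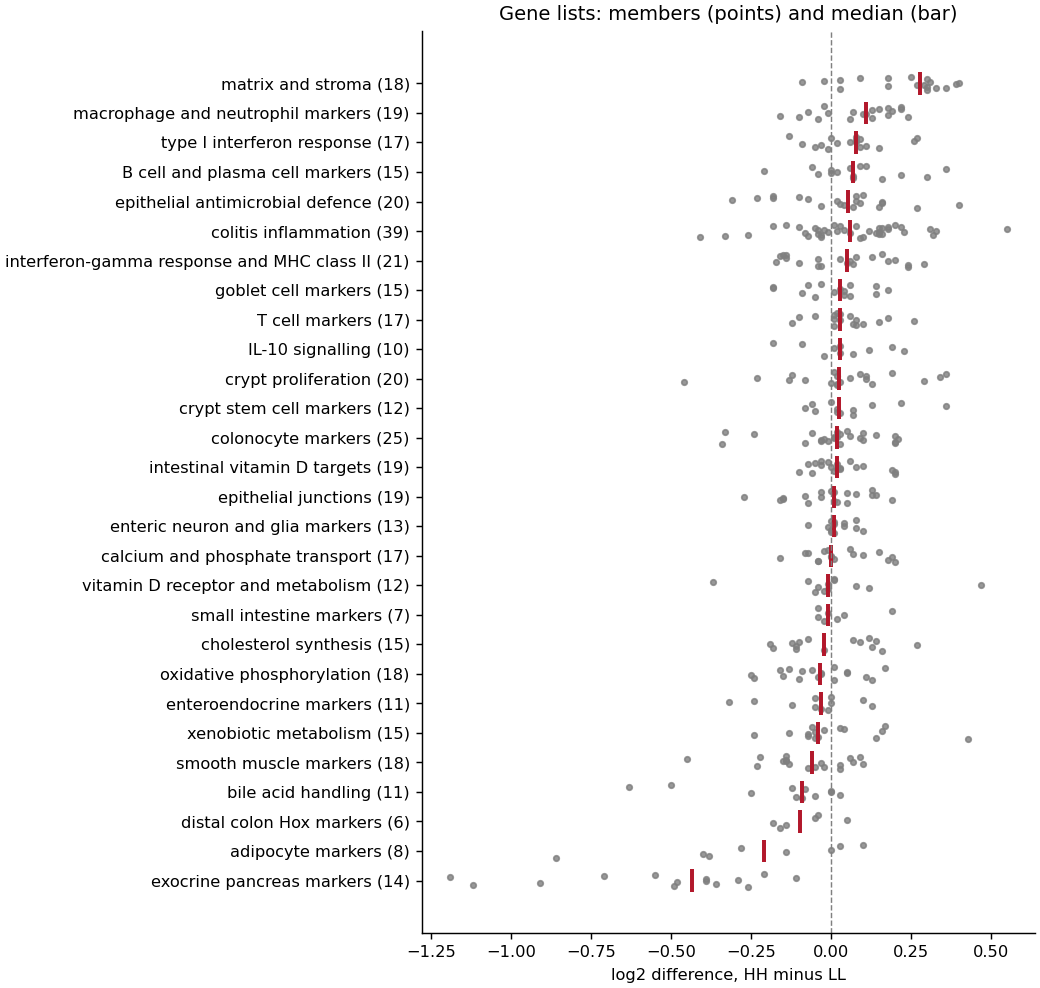
Log2 difference HH minus LL (horizontal axis) of each expressed member (grey points) of 28 gene lists with at least 5 expressed members, with the list median as a red bar and the number of members in parentheses. Matrix and stroma lies highest at 0.28 and exocrine pancreas lowest at -0.44, and most medians lie close to 0.

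Of 39 expressed genes of colitis inflammation 24 were higher and 15 lower in HH, with a median of 0.06 and 0 past the adjusted test. The matrix protease gene Mmp3, induced in inflamed stroma, was at 7.72, 8.76 and 9.90 in HH and 7.73, 8.23 and 8.70 in LL (0.55, 95% interval -0.02 to 1.13). The HH mice held both the lowest and the highest value, HH 10B and HH 11A. The chemokine gene Cxcl10 differed by 0.32 and the protease inhibitor gene Timp1 by 0.20. These 3 genes were named for the smallest p-values among detected members, and all were higher in HH. The 15 lower members, looked at after their values were seen, included the chemokine genes Ccl4 (-0.41), Ccl5 (-0.33) and Cxcl1 (-0.26). Cxcl10 was at 0.15 without LL 3B and at 0.07 without LL 3B and LL 13, and a dimmer probe of it, detected on 5 HH and 5 LL arrays, gave 0.06. The list mean was -0.64 in HH 10B and -0.41 in LL 6, against 0.05 to 0.37 in the other HH and -0.05 to 0.16 in the other LL mice, so that each group held 1 mouse with low inflammation genes. The median was 0.12 without both of these mice and -0.02, with 18 of 39 higher, without HH 11A. LH minus HL gave a median of 0.18, with 32 of 39 higher.

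For macrophages and neutrophils 13 of 19 were higher (median 0.11), with the endotoxin co-receptor gene Cd14 at 0.24 and the neutrophil gene Retnlg at 0.22. The 6 lower members included Clec7a (-0.16) and Fcgr3 (-0.07). For T cells 14 of 17 were higher (median 0.03), with Cd3g, a subunit of the T cell receptor complex, at 0.26 and the regulatory T cell factor gene Foxp3 at -0.10. For B and plasma cells 12 of 15 were higher (median 0.07), with the coactivator gene Pou2af1 at 0.36 and the secretory factor gene Xbp1 at 0.11. The 3 lower members included the plasma cell genes Mzb1 (-0.21) and Sdc1 (-0.06). Interferon-gamma and MHC class II genes were split, 12 higher and 9 lower (median 0.05), with Gbp3 at 0.29 and the invariant chain gene Cd74 at 0.24. Type I interferon genes had 12 of 17 higher (median 0.08), with Oasl2 at 0.27 and Ddx58, a sensor of viral RNA, at 0.15, and Oas2 as the 1 member at an unadjusted p under 0.05. In none of these lists did a member pass the adjusted test. Over all genes 48.8% were higher, and the list counts include members not detected. On detected probes only, 11 of 14 macrophage and neutrophil genes, 7 of 10 T cell genes and 6 of 8 B and plasma cell genes were higher. Without LL 6 the macrophage and neutrophil list had 8 of 19 higher and a median of -0.00, the T cell list 9 of 17 higher and a median of 0.00, and the interferon-gamma list a median of -0.03. Without LL 3B and LL 13 the differences were 0.03 for Gbp3, 0.12 for Cd74, 0.04 for Ddx58 and 0.21 for Pou2af1, and Gbp3 was at 0.18 without HH 5.

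Colonocyte markers had 16 higher and 9 lower (median 0.02), with the sodium and proton exchanger gene Slc9a3 at -0.33 and the sodium channel subunit gene Scnn1b at -0.24. Without LL 3B and LL 13, 7 of these 25 were higher and the median was -0.14, so that its direction rested on those arrays. Slc9a3 was at -0.05 without LL 6 and -0.01 under median scaling, and Scnn1b at -0.04 without LL 3B and LL 13. Goblet cell markers had 9 higher and 6 lower (median 0.03), with the secreted resistin-like gene Retnlb at -0.18 and the goblet cell factor gene Spdef at -0.18. Of the 20 genes of epithelial antimicrobial defence 13 were higher (median 0.06, and -0.06 without HH 11A). The lectin gene Reg3g, which kills Gram-positive bacteria at the mucosa, was at 13.02, 13.37 and 13.75 in HH and 13.35, 13.68 and 13.82 in LL (-0.23, 95% interval -0.53 to 0.06). Epithelial junction genes had 10 higher and 9 lower (median 0.01), with the claudin gene Cldn7 at -0.27 (-0.14 without LL 3B and LL 13). In the crypt, the stem cell list had a median of 0.02, with Prom1 at 0.36, and the proliferation list one of 0.03, with Top2a at 0.36. Cdc20, an activator of the anaphase complex, was the 1 proliferation gene at an unadjusted p under 0.05, lower in HH (difference -0.46, 95% interval -0.86 to -0.06), and 3 dimmer probes of it gave -0.18, -0.23 and 0.09. Genes of oxidative phosphorylation had a median of -0.03, with the cytochrome oxidase subunit gene Cox4i1 at -0.24. Prom1 and Top2a were each at 0.07 without LL 3B and LL 13.

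Of 18 smooth muscle genes 12 were lower in HH (median -0.06, and 0.03 without LL 6), with the intermediate filament genes Synm at -0.45 and Des at -0.23. Without LL 6 these were -0.25 and -0.05. HH 10B (0.45) and LL 6 (0.69) had the lowest inflammation genes of their groups and the highest smooth muscle list means. The rest of their groups lay at -0.26 to 0.00 and -0.16 to 0.02 for smooth muscle. HL 10B, which shares a mother's label with HH 10B, was at -0.72 for inflammation and 0.66 for smooth muscle. In LH minus HL the smooth muscle median was -0.27, with 1 of 18 higher. Adipocyte genes had a median of -0.21 over 8 members (-0.10 without LL 6 and -0.05 without HH 10B and LL 6), with the fat hormone gene Adipoq at -0.86 and the lipase gene Lpl at -0.28. Adipoq was at 9.34 in HH 5A and at 9.23 to 9.80 in LL 12, LL 3B and LL 6, and at 7.14 to 7.78 in the other 8 mice.

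All 14 expressed genes of the exocrine pancreas, which makes the digestive enzymes, were lower in HH, with a median of -0.44 and 0 past the adjusted test. The list mean was 1.75 in LL 13A and 0.43 in LL 12, against -0.34 to -0.00 in the other 4 LL mice and -0.45 to -0.00 in HH. Of the 14 genes 3 were detected on 10 or more of the 12 arrays. Clps, the colipase gene, was at 7.45, 7.53 and 8.56 in HH and 7.43, 8.35 and 10.91 in LL, with LL 13A the highest (-0.91, 95% interval -2.13 to 0.31), and the elastase gene Cela1 differed by -0.49. The median was -0.15 without LL 13A, with 1 of 14 higher. HL 8C, at 2.70, lay above every HH and LL mouse. In LH minus HL the median was -0.46, with 0 of 14 higher. The part of pancreatic tissue in these values was not tested.

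**Figure D4:**
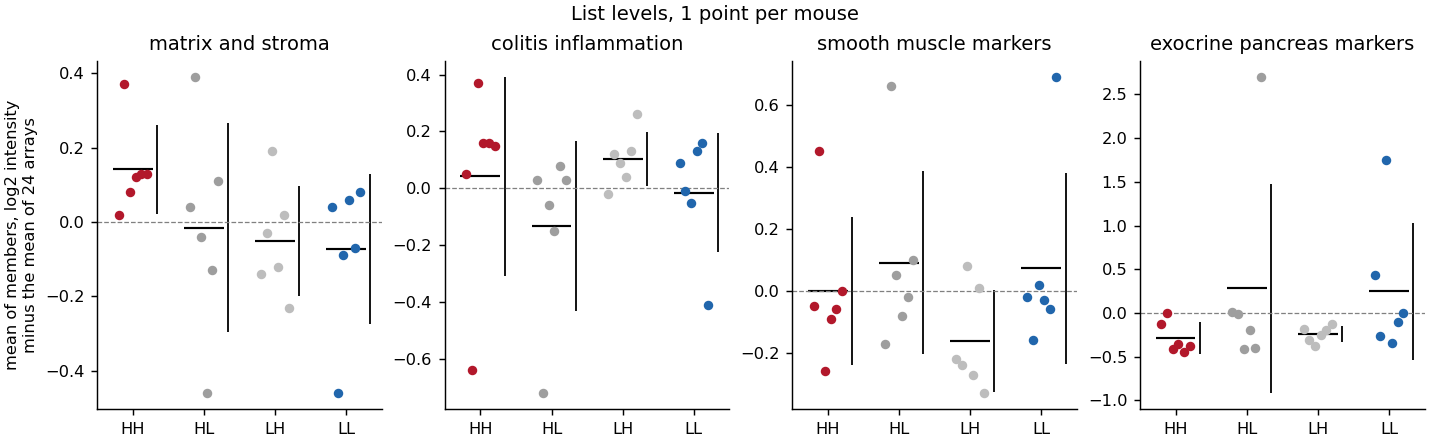
Mean of the expressed members of 4 gene lists in each mouse (vertical axis, log2 intensity minus each probe's mean over 24 arrays, a separate range for each list) by group; horizontal lines are group means and vertical lines 1 SD either way (n = 6). All 6 HH mice lie above 0 for matrix and stroma. HH 10B, HL 10B and LL 6 are low in inflammation and high in smooth muscle genes. HL 8C at 2.70 and LL 13A at 1.75 are the highest mice for exocrine pancreas.

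Over the 8396 detected genes the median within-group SD was 0.173 in HH and 0.234 in LL, and LL had the larger SD for 5890 genes (70.2%). Without LL 3B and LL 13 the LL median was 0.158, below that of HH, and 43.2% of genes had the larger SD in LL. Leaving out deviant mice of 1 group alone tends to lower the SD of that group. The share was 58.1% without LL 3B alone and 66% without LL 13 alone. Without HH 10B and LL 6, 1 mouse of each group, it was 76.1%, with medians of 0.152 in HH and 0.233 in LL. LL 3B and LL 13 held the 2 highest LL values of Notch1 and Rxrb and the 2 lowest of Pdia3. For Cdo1 the difference was -0.41 with and without them, for Slc51b -0.50 and -0.47, and for Mmp3 0.55 and 0.58.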

How the data were processed

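The authors hybridized RNA of each mouse to an Illumina MouseWG-6 v2 BeadChip, and they deposited log2 intensities after quantile normalization. Raw intensities and a detection score, a fraction of 1 minus the detection p, were also deposited. Quantile normalization of the raw values gave the deposited log2 values to within 0.000415, and no centring per probe was present. Of 45281 probes, 34885 had 1 gene symbol, 18 several and 10378 none. Expressed probes (34375) lay above the 20th percentile of the array in 80% of the arrays of a group. Limma 3.58.1 (R 4.3.3) was fitted to all 24 arrays with 1 mean per group, HH minus LL was tested, and p-values were adjusted by Benjamini-Hochberg over expressed probes. A gene was read from its brightest probe, and was detected with a score above 0.99 on at least 5 of the 6 arrays of the higher group. The fit was tested on simulated data. Named genes were the 12 higher and 12 lower detected genes of smallest p, the vitamin D lists, and up to 3 detected members of each other list with the smallest p. Members and lists were chosen with earlier results of these data known. Sequences are from RefSeq (GRCm38.p6). Slide and scan batches were not given in the sources used here, and the number of arrays limits the precision. Alternatives were array weights, detection as covariate, detected probes, median scaling, neqc, no filter, other probes and omitted mice. A further one took the mother's number, without its letter, as block.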

Additional observations from a re-analysis of the deposited data

Results flagged for a closer look

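A mouse stood far from the other 5 of its group in 25 of 212 sets of 6 values. The rule flags about 1 in 20 sets of independent values. These sets share mice, and lists share genes with each other and with the named genes, so the count cannot be set against that rate. HH 10B supplied 5 of the genes: Cd14 at 10.58 against 11.02 to 11.21 in the other 5 HH mice, Cdo1 at 9.31 against 8.82 to 8.90, Dhcr7 at 9.06 against 7.93 to 8.20, Nod2 at 6.99 against 7.44 to 7.65 and Sparc at 10.80 against 10.36 to 10.51. Its list means were -0.64 for colitis inflammation, -0.61 for macrophages and neutrophils, -0.17 for T cells, -0.63 for interferon-gamma and MHC class II and -0.28 for type I interferon genes, all below the other 5. They were 0.45 for smooth muscle and 0.37 for matrix and stroma, both above the other 5. LL 6 stood out the same way, with -0.41 for colitis inflammation, -0.30 for T cells and 0.69 for smooth muscle, and with Cd3g at 7.89 against 8.62 to 8.99 in the other LL mice.

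LL 13 was apart in Cdc20 at 11.05 against 10.09 to 10.42, in Xbp1 at 12.13 against 12.29 to 12.34 and in the matrix list mean at -0.46. LL 3B was apart in Timp1 at 8.79 against 7.97 to 8.21. HH 5A was apart in Adipoq at 9.34 against 7.22 to 7.46, in the adipocyte list mean at 0.43 and in the single erythroid gene expressed, with a mean of -0.47. HH 10 was apart in Cyp3a13 at 10.07 against 10.76 to 11.13, and LL 13A in the exocrine pancreas list mean at 1.75.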

How the results depend on the processing

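No probe passed the adjusted test under any setting of the limma fit or by the methods' test on single probes (1584 at an unadjusted p under 0.05), and the lowest adjusted p of the 24 leading genes in limma was 0.623. The count at an unadjusted p under 0.05, 1125 in the fit reported, was 1925 with array weights, 242 on detected probes only, 611 without LL 3B and LL 13 (chosen after seeing the data) and 877 to 1663 with 1 mouse left out. Probes with ranges apart numbered 64, and 11 on detected probes only, 282 without LL 3B and LL 13 and 110 to 228 with 1 mouse left out, where fewer mice make separation easier. Between-group minus within-group distance, 0.0015 in the main setting, became -0.00831 on detected probes and -0.00138 under median scaling. It was -0.000692 without HH 10B and LL 6 and -0.0501 without LL 3B and LL 13. The count of genes with the larger SD in LL became 3624 without LL 3B and LL 13 and 6386 without HH 10B and LL 6.

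All 24 leading genes kept their sign with each mouse left out, and 22 under every other setting of the fit. The exceptions were Rhot2 and Epn2 (0.00) under median scaling. These genes were picked by p-value on the same arrays, which largely fixes their sign under such changes, so this is no support for them. Median scaling turned Rhot2 (0.03), Cdkn1a (0.21), Cldn7 (0.04), Cyp27a1 (0.24), Des (0.06), Dhcr7 (0.20), Foxp3 (0.21), Lpl (0.03), Scnn1b (0.01), Slc8a1 (0.24), Spdef (0.11) and Txnip (0.20), while the median of all detected genes moved to 0.211. Array weights turned Car2 (-0.05), Cyp27a1 (0.04), Cyp3a13 (-0.05), Foxp3 (0.01), Txnip (0.01) and Vdr (-0.07). The share of probes detected as covariate turned Car2 (-0.02), Cyp3a13 (-0.04), Dhcr7 (0.06), Med1 (-0.01), Txnip (0.02) and Vdr (-0.18). Without HH 10B and LL 6, Cldn12 (-0.04), Cyp27a1 (0.09), Slc8a1 (0.01) and Txnip (0.01) turned. Without LL 3B and LL 13, Car2 (-0.11), Cyp3a13 (-0.18), Dhcr7 (0.10), Foxp3 (0.04), Med1 (-0.03), Txnip (0.02) and Vdr (-0.21) turned, and Nod2 was at -0.00. Other probes gave 0.11 for Epn2, 0.07 for Rxrb, 0.12 for Cdk5rap1, 0.09 for Cdc20, and -0.02 and -0.07 for Vdr. With 1 mouse left out the sign changed for Cldn12 (-0.04 to 0.05), Cyp27a1 (-0.12 to 0.04), Cyp3a13 (-0.06 to 0.16), Dhcr7 (-0.19 to 0.06), Slc8a1 (-0.14 to 0.02), Txnip (-0.11 to 0.09) and Vdr (-0.12 to 0.11). The cause of these changes was not tested. No paired analysis was possible because no HH mouse shared a mother's label with an LL mouse. Values near background, as for Cyp24a1, limit what the arrays can show.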
